A study of Mus musculus with 10 samples.

Results

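The comparison described here sets 2KO against deltaEmu, 2 groups of femoral (bone marrow) B cells from mice, with 2 RNA sequencing libraries in each group, so it uses 4 of the 10 libraries of the series. The libraries were chosen by the sequencing index that ends each sample description: 2KO_1 and 2KO_3 are called 2KO replicates 1 and 3, and deltaEmu5 and deltaEmu7 are called deltaEmu replicates 5 and 7. All 4 carry the C57BL6 strain background, and the cells went into RNA extraction right after recovery, without culture. The animals were 8 to 10 weeks old for these and for all other libraries of the series. The labels give deltaEmu as a genotype, which names the deletion of Eµ, the intronic enhancer of the immunoglobulin heavy chain locus (IgH). They do not spell out 2KO and give no genotype field for it. The design text speaks of mice deficient for 5′Eµ and the 3′ regulatory region (3′RR), the enhancer cluster at the other end of the IgH locus, of RAG2-deficient mice, and of RNA pools. A replicate is therefore a pool of unstated size. No wild-type femoral library was analysed here. The other 4 libraries, used only for ranges of levels, are wt splenic B cells cultured with LPS and IL4, some also with SAHA, an inhibitor of histone deacetylases. Which of them received SAHA differs between their titles and descriptions, and their strain field differs from that of the femoral cells. The pair of RAG2_deficient femoral libraries, from mice that lack a recombinase needed to assemble immunoglobulin genes, entered the fit to share the estimate of spread, and their levels are given beside some results.

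The count table names its columns by number, and the labels hold a second numbering, in the sample titles, that would assign other columns to these groups. Rag1, the recombinase gene of developing lymphocytes, lay at 269 and 146 CPM (counts scaled to a common library size) in 2KO and at 156 and 224 CPM in deltaEmu as assigned here, and at no more than 0.0391 CPM in the 4 columns that the index gives to cultured spleen cells. Were the numbering of the titles to apply, the groups would be others and the comparison would not hold. Total counts were 20039308 and 20825349 in 2KO and 19606981 and 17710154 in deltaEmu. Log2 CPM correlated at 0.988 within 2KO, at 0.989 within deltaEmu and at 0.941 to 0.956 between libraries of the different groups, across genes, which are not independent replicates. All 4 libraries held both Xist, the RNA of the inactive X chromosome, and RNA of the Y-linked Ddx3y, so each held RNA of both sexes: Xist lay at 688 to 1053 CPM and Ddx3y at 45.4 to 70.2 CPM. Neither gene was called between the groups. The RAG2_deficient libraries differed here: their Y-linked genes summed to 0.311 and 0 CPM, against 113 to 164 CPM in the 4 libraries. Their X inactivation genes summed to 1259 and 2976 CPM. Where RAG2_deficient levels are set beside the others, sex and genotype thus cannot be told apart.

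B cells form in the marrow from progenitors that rearrange their immunoglobulin genes, first the heavy chain and then a light chain. Cells that complete both display a B cell receptor and gain the surface proteins of mature B cells, and cells that fail to make a heavy chain stop at the progenitor stage. The same marrow cavity makes red cells, in which erythroblasts fill with hemoglobin, build a spectrin and ankyrin membrane skeleton and expel their organelles, and it makes neutrophils, which load their granules in stages. RNA of a marrow cell fraction can thus hold transcripts of several lineages.

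A gene was called when its adjusted p from edgeR's quasi-likelihood test (Benjamini-Hochberg over all 16538 genes tested) was below 0.05. Log2 fold changes are 2KO over deltaEmu with ± SE. This SE is the size of the log2 fold change divided by the square root of the test's F value. It thus carries the spread shared with RAG2_deficient and is not the spread between the 2 libraries of a group. In all, 612 genes were called, which is 3.7% of those tested. Immunoglobulin segments and Jchain, the chain that joins secreted antibodies, made up 123 of them, and all 123 were lower in 2KO. Ighm lay at 4.50 and 6.11 CPM in 2KO and at 479 and 577 CPM in deltaEmu. Outside these segments, 489 of 16388 genes were called (2.98%), of which 296 were higher in 2KO (1.81% of the genes tested) and 193 were lower (1.18%). The change was at least 4-fold for 163 of the genes called higher and 70 of those called lower. A lack of overlap between the 2KO and deltaEmu libraries was common, at 57.1% of all genes outside the segments, so it says little by itself. The count outside the segments depended on the libraries in the fit. It was 319 without 2KO replicate 1, 157 without 2KO replicate 3, 60 without deltaEmu replicate 5 and 58 without deltaEmu replicate 7. The RAG2_deficient libraries moved it the other way: it was 1431 and 1446 without replicate 1 or 2 of that group, and 1447 with the 4 compared libraries alone.

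**Figure D1:**
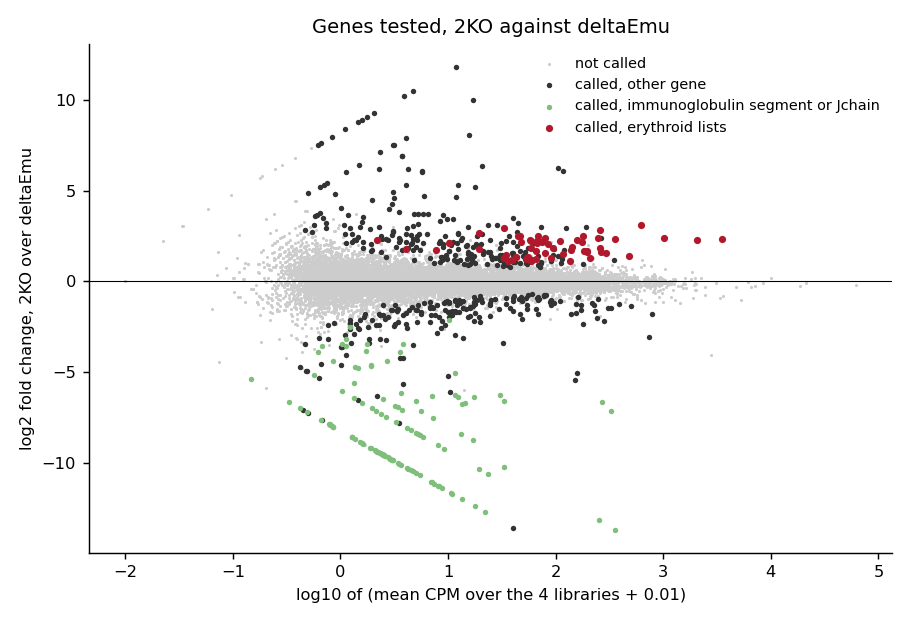
Each point is 1 of the 16538 genes tested, with the mean level over the 4 libraries on the x axis (log10 of CPM + 0.01) and the log2 fold change of 2KO over deltaEmu on the y axis. The 58 called genes of the erythroid lists (red) lie above 0, the 123 called immunoglobulin segments and Jchain (green) lie below 0, and grey genes were not called; the diagonal lines are genes with few or no counts in 1 group, whose fitted fold changes depend on the small count added to each value.

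Genes of red cell formation held more of the genes that rose than those of any other role in the lists. Of 97 tested members of the 4 erythroid lists, 58 were called higher in 2KO and none lower, and these 58 are 19.6% of all genes called higher outside the immunoglobulin segments. Their log2 fold changes ran from 1.12 to 3.11, and 27 of them were at least 2. The median over all 97 members was 1.28, against -0.01 over all genes outside the segments. The 2KO and deltaEmu libraries did not overlap for 89 of the 97 members, called or not, against 57.1% of all genes outside the segments. In each of the 58 called genes both 2KO libraries lay above both deltaEmu libraries. Every gene called outside the segments had libraries that did not overlap, so this adds nothing to the calls. In each of the 58, 2KO replicate 3 lay above replicate 1, by a median ratio of 1.68. The rise in the erythroid genes was thus uneven between the 2KO pools. No member was called in the fits without deltaEmu replicate 5 or without deltaEmu replicate 7, where 73 and 75 members had an unadjusted p under 0.05. Without 2KO replicate 3, 25 members were called, and without replicate 1, 61. DESeq2 called 74 and limma voom 55 members higher. In bulk RNA, more cells of a type and more RNA per cell cannot be told apart.

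The globin and heme list had 16 of 24 tested members called higher and a median log2 fold change of 1.36. Beta globin Hbb-bs lay at 4463 and 7136 CPM in 2KO and at 1119 and 1187 CPM in deltaEmu (log2 fold change 2.33 ± 0.42, adjusted p = 0.0247). Alpha globin Hba-a1 lay at 3009 and 3819 CPM against 643 and 752 CPM (2.29 ± 0.41, adjusted p = 0.0245), and its near-identical copy Hba-a2 at 499 and 676 CPM against 123 and 110 CPM (2.33 ± 0.25, adjusted p = 0.00291). Reads can be shared between these copies, so the split between them is uncertain. Alas2, the first enzyme of heme synthesis in red cells, lay at 329 and 506 CPM in 2KO and at 88.6 and 70.0 CPM in deltaEmu (2.4 ± 0.30, adjusted p = 0.00573). Enzymes further along the pathway rose as well: Alad, which joins the heme precursors, lay at 130 and 230 CPM against 39.7 and 38.9 CPM, and Fech, which inserts the iron, at 156 and 271 CPM against 71.1 and 58.0 CPM. Among the iron handling genes, Tfrc, the transferrin receptor, lay at 509 and 882 CPM against 270 and 262 CPM (1.39 ± 0.29, adjusted p = 0.0442). Slc25a37, which carries iron into mitochondria, lay at 274 and 530 CPM against 116 and 110 CPM. The 8 members that did not pass the test ranged from a log2 fold change of -0.06, for Ftl1, a chain of the iron store ferritin that is made in most cells, to 1.19, for Blvrb, a reductase of heme breakdown.

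Genes of the red cell membrane had the highest share of calls among the erythroid lists, with 25 of 30 tested members called higher and a median log2 fold change of 2.12. Slc4a1, the band 3 anion exchanger, lay at 738 and 1486 CPM in 2KO and at 149 and 108 CPM in deltaEmu (3.11 ± 0.39, adjusted p = 0.00567). Sptb, the beta chain of spectrin, lay at 276 and 622 CPM against 73.8 and 52.6 CPM (2.83 ± 0.39, adjusted p = 0.00818). Ank1, the ankyrin that ties spectrin to band 3, lay at 194 and 416 CPM against 60.5 and 49.2 CPM (2.47 ± 0.36, adjusted p = 0.0103). The parts of the skeleton and its anchor thus rose together, each more in 2KO replicate 3 than in replicate 1. Blood group genes were among those with the smallest adjusted p. Rhd lay at 85.7 and 137 CPM against 22.5 and 24.3 CPM (2.25 ± 0.26, adjusted p = 0.00394), and Kel, of the Kell group, at 81.9 and 146 CPM against 24.2 and 22 CPM (2.30 ± 0.27, adjusted p = 0.00411). Of the 5 members not called, Slc2a1, a glucose carrier of many cells, was the closest to 0, at 0.03 ± 0.20.

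Promoters of called erythroid genes are shown because GATA1, the factor that drives red cell genes, binds short GATA motifs. The RefSeq table (GRCm38.p6) held a promoter for 42 of the 58 called members. The 250 bases before the start were searched on both strands for AGATAA or TGATAA, which differ in their first letter and cannot overlap in full. A match lay in 15 of the 42 (35.7%) and in 17.0% of the promoters of all 27025 genes in the table. For the 42, the start nearest the 5′ end of the gene was used, and for the table the first listed start of each gene. The shares thus rest on differently chosen starts, and the table was not limited to genes tested here. A match is a description of letters and not a bound site. The members with a promoter and the smallest adjusted p were Hba-a2 (chr11:32296242-32296491, plus strand), Rhd (chr4:134864286-134864535, plus strand) and Tspan33 (chr6:29693964-29694213, plus strand), a tetraspanin of erythroblasts. They are printed from 5′ to 3′ up to the base before the start, with motif matches in capitals.
Hba-a2: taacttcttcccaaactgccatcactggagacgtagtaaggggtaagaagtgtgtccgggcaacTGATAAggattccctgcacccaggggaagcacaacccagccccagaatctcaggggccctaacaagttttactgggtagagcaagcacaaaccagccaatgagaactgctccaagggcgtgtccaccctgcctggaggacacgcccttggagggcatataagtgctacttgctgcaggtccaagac
Rhd: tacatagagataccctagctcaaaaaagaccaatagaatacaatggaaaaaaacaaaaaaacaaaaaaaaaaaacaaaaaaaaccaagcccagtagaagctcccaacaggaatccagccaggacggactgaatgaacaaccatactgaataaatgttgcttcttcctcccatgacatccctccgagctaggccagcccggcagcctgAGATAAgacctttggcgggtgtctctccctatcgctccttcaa
Tspan33: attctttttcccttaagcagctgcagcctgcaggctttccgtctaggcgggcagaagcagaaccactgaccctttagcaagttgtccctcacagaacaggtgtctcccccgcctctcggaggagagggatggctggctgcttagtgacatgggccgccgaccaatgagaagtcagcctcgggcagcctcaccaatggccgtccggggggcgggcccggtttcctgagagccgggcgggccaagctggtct
The match begins 186 bases before the start of Hba-a2 and 43 bases before that of Rhd, and the window of Tspan33 held no match. All 3 genes rose: Tspan33 lay at 73.4 and 118 CPM in 2KO and at 21.4 and 17.8 CPM in deltaEmu (2.29 ± 0.26, adjusted p = 0.00394).

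Among regulators, 6 of 20 tested members of the transcription and signalling list were called higher, with a median of 0.82. Epor, the receptor for erythropoietin, lay at 24.3 and 35.3 CPM in 2KO and at 8.35 and 8.72 CPM in deltaEmu (1.81 ± 0.26, adjusted p = 0.0107). Tal1, a factor that works with GATA1, lay at 83.7 and 157 CPM against 40.6 and 39.9 CPM (1.58 ± 0.28, adjusted p = 0.0231), and Klf1, which switches on adult beta globin, at 62.3 and 84.3 CPM against 29.4 and 33.8 CPM (1.22 ± 0.24, adjusted p = 0.0368). Zfpm1, the partner protein of GATA1, and Bcl2l1, the survival gene that keeps erythroblasts alive, were called as well, at 1.12 ± 0.20 and 1.19 ± 0.25. Gata1 itself did not pass the test, at 44.1 and 71.3 CPM against 27.5 and 29.2 CPM (1.03 ± 0.29, adjusted p = 0.122). Whether regulators and structural genes differ was not tested. Genes of reticulocyte remodelling, the clearing of organelles and proteins late in red cell formation, had 11 of 23 members called higher and a median of 1.16. Ypel4 lay at 44.4 and 73.1 CPM against 8.5 and 7.0 CPM (2.92 ± 0.35, adjusted p = 0.00448), and Ube2o, an enzyme that marks unneeded proteins for breakdown in reticulocytes, at 98.8 and 174 CPM against 35.4 and 29.5 CPM.

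**Figure D2:**
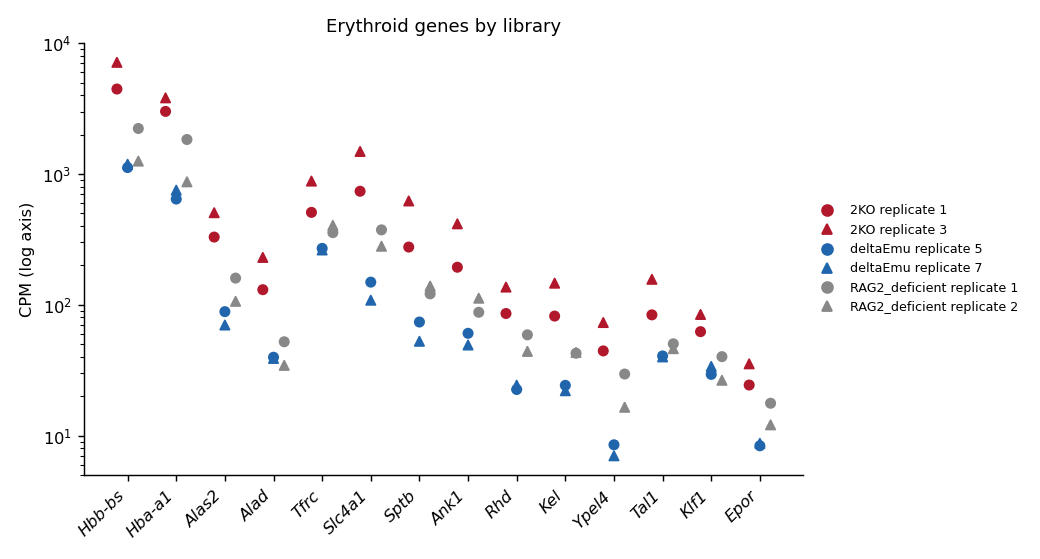
Levels of 14 erythroid genes in CPM (log axis) in each library, with circles and triangles for the replicates of a group. The 2KO libraries (red) lie above the deltaEmu libraries (blue) for all 14 genes, with 2KO replicate 3 the higher, and RAG2_deficient (grey) is given for comparison of levels.

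The summed level of the globin and heme list was 13140 and 18550 CPM in 2KO, 4416 and 4769 CPM in deltaEmu, and 8200 and 4776 CPM in RAG2_deficient. That of the membrane list was 4576 and 7814 CPM, 1873 and 1626 CPM, and 2740 and 2393 CPM in the same order. The RAG2_deficient mean of 57 of the 58 called members lay between the means of 2KO and deltaEmu. All erythroid lists together took 2.19% and 3.37% of the counts in 2KO and 0.918% and 0.858% in deltaEmu. Genes outside the lists, chosen after their values were seen, included others of red cells. Hemgn, a nuclear protein of erythroid progenitors, lay at 103 and 197 CPM against 46.2 and 40.8 CPM. Of the carrier genes named Slc, 236 were tested, with a median of 0.05 over the family. None was called lower and 14 were called higher (5.93%), beside 1.81% of all genes outside the immunoglobulin segments. Among them were Slc4a1, Slc25a37 and Slc11a2, which are in the erythroid lists, and Slc6a9, a glycine carrier, at 26.6 and 58.0 CPM against 4.50 and 5.34 CPM. Redrum, a noncoding RNA of red cells, had 314 counts over the 2KO libraries and 2 over the deltaEmu libraries, so the 2KO level was 138 times that of deltaEmu (95% counting interval 37.9 to 1144). This interval covers counting error only and not the spread between pools, and the 2KO libraries were uneven, at 3.265 and 11.4 CPM.

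Neutrophil genes lay on the other side of 0. Of 44 tested members of the neutrophil lists, 43 had a log2 fold change below 0, the exception being Stfa1, and only 4 passed the test, all lower in 2KO and all from the late granule list of 31, of which DESeq2 called 18 lower and limma voom 3. The late granule count was 1 without either 2KO library, 0 without either deltaEmu library, and 21 and 22 without RAG2_deficient replicate 1 or 2. Stfa2l1, a stefin, lay at 3.81 and 4.46 CPM in 2KO and at 14.7 and 18.0 CPM in deltaEmu (-1.98 ± 0.27, adjusted p = 0.00793), and Mcemp1, a membrane protein of granulocytes, at 60.6 and 53.4 CPM against 95.6 and 98.8 CPM (-0.77 ± 0.17, adjusted p = 0.0476). BC100530 and Stfa2 were the other called members, and both belong to the stefin cluster, whose near-identical copies can share reads. The calprotectin genes S100a8 and S100a9 and the granule gene Ltf did not pass: S100a9 lay at 3922 and 2968 CPM against 6252 and 8016 CPM (-1.05 ± 0.37, adjusted p = 0.215). None of the 13 primary granule genes was called, with 5 lower at an unadjusted p under 0.05 and 4 called lower by DESeq2; without either RAG2_deficient library 6 were called lower. Mpo, the myeloperoxidase, lay at 1945 and 1716 CPM against 3127 and 2956 CPM (-0.73 ± 0.31, adjusted p = 0.305). Late granule genes summed to 14020 and 11890 CPM in 2KO, 23650 and 26220 CPM in deltaEmu, and 9904 and 11220 CPM in RAG2_deficient. The part of these other lineages in the remaining differences was not tested; with both lineages' lists removed before normalization, 399 genes outside the immunoglobulin segments were called, and all 399 were among the 489.

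Other marrow lineages gave few calls. None of 28 monocyte and macrophage genes was called. At an unadjusted p under 0.05, 7 were higher and 2 lower, and DESeq2 called 2 higher. Of 20 megakaryocyte genes 1 was called, Thbs1, a thrombospondin. It lay at 490 and 467 CPM in 2KO against 250 and 174 CPM in deltaEmu (1.18 ± 0.23, adjusted p = 0.0338). The megakaryocyte list leaned the other way, with 13 of 20 genes below 0 and a median of -0.29. At an unadjusted p under 0.05, 5 were lower and 1 higher, and DESeq2 called 3 lower and 1 higher. Of 103 tested stromal, bone, matrix and endothelial genes, 3 were called lower, Dcn, Ibsp and Col5a2. In the same lists 1 was called higher, Ly6c1, which is described below. These pooled counts are near the share called among all genes outside the immunoglobulin segments, 2.98%. The osteoblast list within them leaned lower: 20 of its 22 tested genes had a log2 fold change below 0, with a median of -0.77. In it 11 genes were lower and 1 higher at an unadjusted p under 0.05, and DESeq2 called 5 lower. Dcn, decorin, lay at 9.70 and 8.13 CPM against 18.8 and 18.6 CPM (-1.07 ± 0.17, adjusted p = 0.0138). Osteoblast genes summed to 1932 and 1372 CPM in 2KO, 2659 and 2854 CPM in deltaEmu, and 9779 and 8532 CPM in RAG2_deficient. The deltaEmu levels of these genes thus lay above the 2KO levels and well below those of RAG2_deficient.

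**Figure D3:**
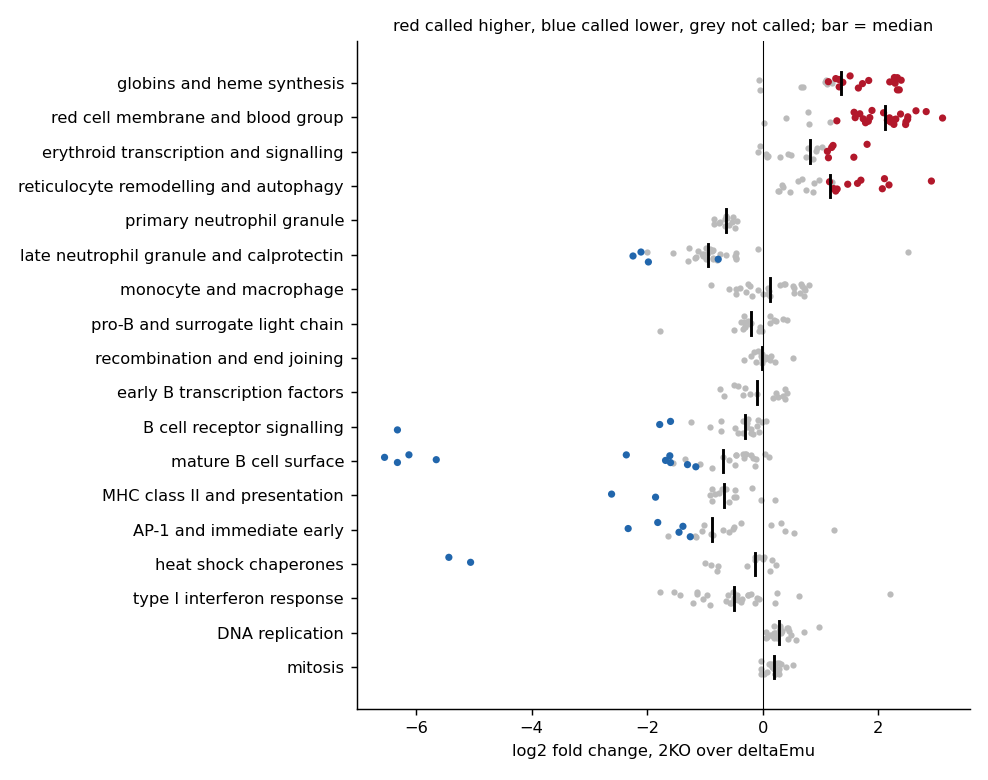
Log2 fold changes of 2KO over deltaEmu (x axis) for the tested members of 18 gene lists, with red points called higher, blue points called lower, grey points not called and a bar at each median. The erythroid lists have medians of 0.82 to 2.12, the neutrophil lists -0.63 and -0.94, and the mature B cell surface list -0.70.

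Of 167 tested B lineage members 18 were called, all lower in 2KO, beside 1.18% called lower among all genes outside the immunoglobulin segments. Among 29 surface genes of mature B cells, 10 were called and 19 were not, 2 had a log2 fold change above 0, and the median was -0.70. Ms4a1, which encodes CD20, lay at 0.297 and 0.276 CPM in 2KO and at 17.0 and 23.8 CPM in deltaEmu (-6.12 ± 0.48, adjusted p = 0.000662). Fcmr, the receptor for IgM, lay at 0.148 and 0.138 CPM against 6.25 and 8.78 CPM (-5.65 ± 0.53, adjusted p = 0.00147). Both genes lay at 1.12 CPM or less in RAG2_deficient, so the deltaEmu libraries were the only femoral ones with more. Cr2, complement receptor CD21, had 2 counts in 2KO and 159 in deltaEmu, and the deltaEmu level was 90.5 times that of 2KO (95% counting interval 24.7 to 754). Fcer2a, the IgE receptor CD23, had 1 count against 101, a ratio of 115 (20.2 to 4587), with uneven deltaEmu libraries at 1.5 and 4.21 CPM. These intervals cover counting error only.

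Other called mature surface genes were present in 2KO at a lower level. Cd69, an early activation marker, lay at 119 and 112 CPM in 2KO and at 355 and 349 CPM in deltaEmu (-1.61 ± 0.20, adjusted p = 0.00578). Cd22, an inhibitory receptor, lay at 5.05 and 4.32 CPM against 14.8 and 13.5 CPM (-1.60 ± 0.23, adjusted p = 0.0107). The homing receptors Ccr7 and Cxcr5, which guide B cells into lymphoid tissue, fell by 2.36 and 1.30 on the log2 scale, and the Fc receptor-like genes Fcrl1 and Fcrla were called lower too. Cxcr5 lay higher in RAG2_deficient, at 22.7 and 20.6 CPM, than in either group. The list count rested on single libraries, with 7 called without 2KO replicate 1, 3 without 2KO replicate 3, 4 without deltaEmu replicate 5 3 without deltaEmu replicate 7, and 13 without either RAG2_deficient library. Ms4a1, Cr2 and Fcmr were called in each of these fits.

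Genes of neighbouring steps gave a few more calls, to be read beside the 1.18% called lower among all genes outside the immunoglobulin segments. Irf4, a factor of the pre-B and plasma cell stages, lay at 33.5 and 28.1 CPM against 58.2 and 74.0 CPM (-1.10 ± 0.20, adjusted p = 0.0245), and Cd2, an adhesion molecule of pre-B cells in mice, at 3.81 and 2.21 CPM against 9.80 and 11.6 CPM. Ralgps2, a guanine exchange factor placed in the receptor signalling list, lay at 22.9 and 19.1 CPM against 73.9 and 70.4 CPM (-1.78 ± 0.18, adjusted p = 0.00214) and was called without each of the 4 libraries. Of 16 genes of MHC class II presentation, H2-DMb2 and H2-Eb2 were called lower, 9 were lower at an unadjusted p under 0.05, and the median was -0.67. No member of this list was called when any 1 of the 2KO or deltaEmu libraries was left out, 10 were called without either RAG2_deficient library, DESeq2 called 6 and limma voom 1. Cd74, the invariant chain, lay at 225 and 185 CPM against 431 and 343 CPM (adjusted p = 0.0602). Of 32 genes of ER folding and secretion, Dnajc3 and Dnajb9, helpers of the folding chaperone BiP, were called lower, at -1.29 ± 0.18 and -0.77 ± 0.15, and both calls were lost when any 1 of the 2KO or deltaEmu libraries was left out.

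The progenitor genes gave no call in 3 lists: 20 pro-B and surrogate light chain genes, 15 recombination and end joining genes and 15 early B transcription factors. At an unadjusted p under 0.05 they held 1, 0 and 1 genes, all lower, and DESeq2 called 1, 0 and 0. Rag2 lay at 20.9 and 13.7 CPM in 2KO and at 13.9 and 21.2 CPM in deltaEmu, and Dntt, which adds bases at the joints, at 230 and 153 CPM against 208 and 271 CPM (-0.32 ± 0.26, adjusted p = 0.63). Pax5, the factor that holds B cell identity, lay at 75.0 and 48.1 CPM against 58.4 and 84.5 CPM. The libraries of the groups overlapped for all of Rag1, Rag2, Dntt and Pax5, and 2KO replicate 1 and deltaEmu replicate 7 were the higher of each pair. These defining markers show B lineage RNA in all 4 libraries. The pro-B list summed to 2474 and 1770 CPM in 2KO, 1931 and 2516 CPM in deltaEmu, and 4826 and 5349 CPM in RAG2_deficient. A missed threshold does not show that the levels are equal: simulated 2-fold changes were recovered in 12% of genes and 4-fold changes in 79.5%.

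Of 22 tested immediate early genes, which cells switch on within minutes of a stimulus, 5 were called, all lower in 2KO. The other 17 did not pass the test, 5 members had a log2 fold change above 0, and the median was -0.88. Among all genes outside the immunoglobulin segments, 1.18% were called lower. Klf2, a factor of resting lymphocytes, lay at 55.9 and 63.2 CPM in 2KO and at 288 and 311 CPM in deltaEmu (-2.33 ± 0.19, adjusted p = 0.00073). Jun, a subunit of AP-1, lay at 378 and 323 CPM against 1293 and 1176 CPM (-1.82 ± 0.35, adjusted p = 0.032). Fosb, its partner, lay at 160 and 169 CPM against 477 and 422 CPM (-1.45 ± 0.21, adjusted p = 0.0111). Dusp1, a phosphatase that ends MAP kinase signals, and Klf6 were also called. Fos lay at 966 and 811 CPM against 2250 and 1751 CPM and did not pass the test (adjusted p = 0.207), and Nr4a2 lay the other way, at 28.1 and 18.8 CPM against 11.9 and 7.89 CPM (adjusted p = 0.0546). The members summed to 3859 and 3447 CPM in 2KO, 8358 and 7157 CPM in deltaEmu, and 2074 and 1179 CPM in RAG2_deficient. The count was 1, Klf2, when any 1 of the 2KO or deltaEmu libraries was left out and 13 without either RAG2_deficient library, and limma voom called 3 members and DESeq2 10 lower.

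Of 15 tested heat shock chaperone genes, 2 were called, both lower in 2KO. In the list 10 genes had a log2 fold change below 0 and 5 above, with a median of -0.14. Hspa1a and Hspa1b, the inducible HSP70 genes, were far lower in 2KO than in deltaEmu. Hspa1a lay at 10.3 and 3.49 CPM in 2KO and at 297.3 and 298.5 CPM in deltaEmu (-5.43 ± 0.56, adjusted p = 0.00241). Hspa1b lay at 13.4 and 4.96 CPM against 292 and 318 CPM (-5.06 ± 0.46, adjusted p = 0.00139), and both were at 2.74 CPM or less in RAG2_deficient. None of the other 13 tested chaperone genes was called; 6 of all 15 were lower at an unadjusted p under 0.05, and DESeq2 called 6. The constitutive Hspa8 lay at 1497 and 1124 CPM against 2579 and 2305 CPM (adjusted p = 0.183). The 250 bases before each start are shown because heat shock factor binds inverted GAA units, searched here as GAANNTTC, a palindrome. By the first listed start of each gene, 6.78% of the promoters in the table hold one. Hspa1a (chr17:34972157-34972406) and Hspa1b (chr17:34959239-34959488) are on the minus strand of GRCm38.p6.
Hspa1a: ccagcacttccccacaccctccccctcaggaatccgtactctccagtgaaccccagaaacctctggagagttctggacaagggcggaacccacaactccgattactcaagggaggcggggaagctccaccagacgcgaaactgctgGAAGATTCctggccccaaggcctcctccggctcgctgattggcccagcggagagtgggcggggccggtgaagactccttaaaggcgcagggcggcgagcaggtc
Hspa1b: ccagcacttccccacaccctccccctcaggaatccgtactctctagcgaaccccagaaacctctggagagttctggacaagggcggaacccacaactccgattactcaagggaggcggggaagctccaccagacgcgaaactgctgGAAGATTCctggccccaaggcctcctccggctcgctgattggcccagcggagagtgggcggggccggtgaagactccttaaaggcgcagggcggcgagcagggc
Each holds 1 match, 104 bases before the start, in capitals. The windows are identical at 247 of 250 bases (98.8%), so the genes are near copies and counts can be shared between them.

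A few more called genes are described singly. Rhob, Tsc22d3 and Rgs1 were picked after they were seen to be called lower, so their direction adds nothing to the counts above. Rhob, a small GTPase made quickly after stimulation, lay at 67.9 and 73.0 CPM in 2KO and at 246 and 228 CPM in deltaEmu (-1.75 ± 0.23, adjusted p = 0.00688). Tsc22d3, a glucocorticoid target also called GILZ, lay at 169 and 178 CPM against 497 and 463 CPM (-1.47 ± 0.22, adjusted p = 0.0111). The signalling regulator Rgs1 lay at 135 and 132 CPM against 317 and 286 CPM. In the p53 list 1 of 16 genes was called, beside 2.98% of all genes outside the immunoglobulin segments. The list split evenly, with 8 genes above 0, 8 below and a median of 0.01, so the call says little about the list. The called gene, Plk2, a stress kinase, lay at 22.5 and 17.2 CPM against 61.6 and 59.5 CPM (-1.61 ± 0.18, adjusted p = 0.00341). Rhob, Tsc22d3 and Rgs1 each lost the call in all 4 fits that left out a 2KO or deltaEmu library.

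**Figure D4:**
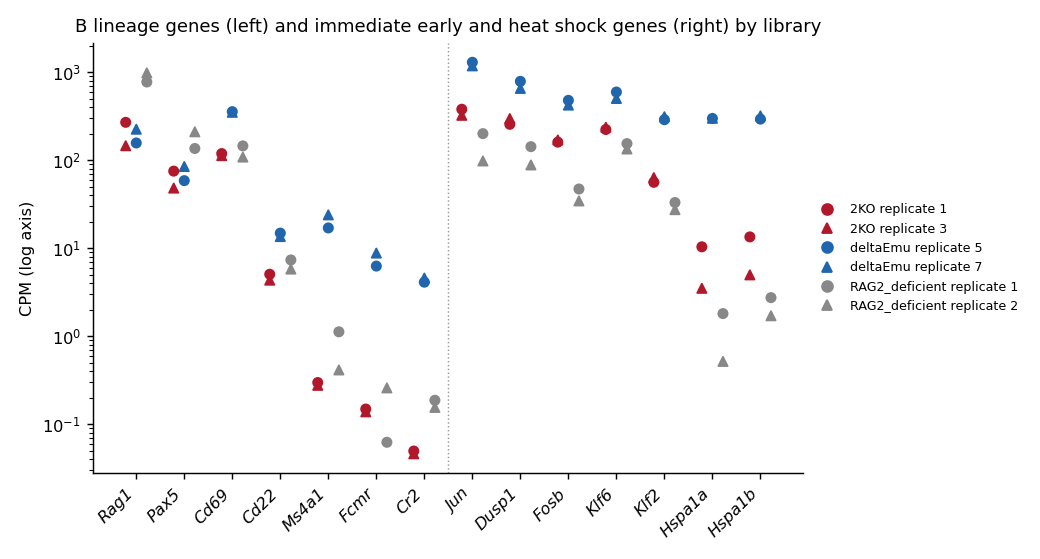
Levels in CPM (log axis) of 7 B lineage genes (left of the dotted line) and 7 immediate early and heat shock genes (right) in each library, with circles and triangles for the replicates of a group. The 2KO (red) and deltaEmu (blue) libraries overlap for Rag1 and Pax5 and separate for the other 12 genes, and Ms4a1 reaches 17.0 and 23.8 CPM in deltaEmu alone.

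Genes of cell division were not called. All 26 tested DNA replication genes had a log2 fold change above 0, with a median of 0.29, and none passed the test; 5 were higher at an unadjusted p under 0.05, DESeq2 called 2 and limma voom none. Orc1, of the origin recognition complex, lay at 29.6 and 41.3 CPM in 2KO and at 19.6 and 16.6 CPM in deltaEmu (0.97 ± 0.23, adjusted p = 0.0682). None of 24 mitosis genes was called, and none had an unadjusted p under 0.05. The type I interferon response gave 0 calls of 30 genes, with 6 at an unadjusted p under 0.05 and 1 called by DESeq2. Its libraries were uneven within both groups: Ifit3, an antiviral effector, lay at 4.3 and 13.3 CPM in 2KO and at 42.9 and 8.30 CPM in deltaEmu. None of 24 tested neighbours of the IgH locus was called, with 4 higher at an unadjusted p under 0.05.

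Several immune genes were near 0 in 1 of the groups and expressed in the other. Ifi202b, an interferon-inducible DNA sensor on chromosome 1 (173962568 to 173982744, minus strand, GRCm38), had no count in either 2KO library and lay at 91.1 and 69.4 CPM in deltaEmu, so it was at least 561-fold lower in 2KO at a floor of 3 counts per library. It had at most 0.0516 CPM in the RAG2_deficient libraries and at most 0.0413 CPM in the cultured spleen libraries, whose strain field differs from that of the femoral cells. Its neighbour Ifi205 was called lower, at 5.54 and 6.94 CPM against 34 and 15 CPM, while Pydc4, of the same cluster, was called higher, at 9.80 and 35.3 CPM against 1.35 and 0.415 CPM. Of 11 tested genes in the list of this cluster, 2 were called lower and 1 higher, and 8 had a log2 fold change above 0. The deltaEmu libraries were thus the only ones of the series with Ifi202b RNA above 0.0516 CPM.

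On chromosome 7 the pattern ran the other way. Trim12a, an antiviral ring finger gene, lay at 25.7 and 42.8 CPM in 2KO and had 1 count over both deltaEmu libraries, a ratio of 1274 (95% counting interval 228 to 50340). It lay at 63.9 and 89.3 CPM in RAG2_deficient and at 47.8 to 63.6 CPM in spleen. Trim5, beside it, lay at 6.43 and 10.2 CPM against 0.100 and 0.119 CPM (6.17 ± 0.43, adjusted p = 0.000453). A few megabases further on, Gvin1, a very large interferon-inducible GTPase, lay at 7.57 and 15.1 CPM against 0.200 and 0.119 CPM (6.07 ± 0.56, adjusted p = 0.00147), and Gm1966, a predicted relative of it, at 195 and 270 CPM against 4.50 and 2.37 CPM. Members of such families are similar in sequence, so counts can be shared among them. Most members of their lists were not called. Of 12 tested genes of the Trim5 and Trim30 list, 2 were called, both higher, 6 lay below 0 and the median was -0.06. Of 19 tested genes of the Gbp, Irg and Gvin list, 1 was called higher, 16 lay below 0 and the median was -0.60. DESeq2 called 3 of these 19 lower and 1 higher. Trim12a, Trim5, Gvin1, Gm1966 and Ifi202b kept their calls without each of the 4 libraries.

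Called genes elsewhere in the genome differed by widely varying amounts. Ly6c1, a surface antigen with a near-identical neighbour, lay at 40.6 and 40.6 CPM in 2KO and at 0.300 and 0.712 CPM in deltaEmu (6.35 ± 0.34, adjusted p = 0.00018), and at 0.933 and 0.722 CPM in RAG2_deficient. Its family went the other way: 9 of 10 tested Ly6 genes had a log2 fold change below 0, and 2 were called lower. Hist1h4m, a histone H4 gene of a family with near-identical copies, lay at 230 and 181 CPM against 1.80 and 3.56 CPM, and at 3.48 and 1.65 CPM in RAG2_deficient. Klri2, a receptor of natural killer cells, had 252 counts in 2KO and 1 in deltaEmu, a ratio of 221 (39.4 to 8776). Of 24 tested natural killer and cytotoxic genes, 2 were called, both higher, beside 1.81% of all genes outside the immunoglobulin segments. In this list 14 genes had a log2 fold change below 0. Vcan, the matrix proteoglycan versican, lay at 78.8 and 67.3 CPM against 7.70 and 5.10 CPM (3.51 ± 0.23, adjusted p = 0.000399). In the lower direction, Serinc3, a membrane protein that restricts viruses, lay at 161 and 157 CPM in 2KO, 1247 and 1402 CPM in deltaEmu, and 1587 and 1551 CPM in RAG2_deficient (-3.06 ± 0.26, adjusted p = 0.000942). Il9r, the interleukin 9 receptor, lay at 0.544 and 0.184 CPM against 6.70 and 6.94 CPM, and Adgrg5, an adhesion receptor, at 9.55 and 1.79 CPM against 60.5 and 58.8 CPM. The RAG2_deficient libraries lay nearer deltaEmu for Ly6c1, Hist1h4m and Serinc3 and nearer 2KO for Klri2, Vcan, Il9r and Adgrg5.

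**Figure D5:**
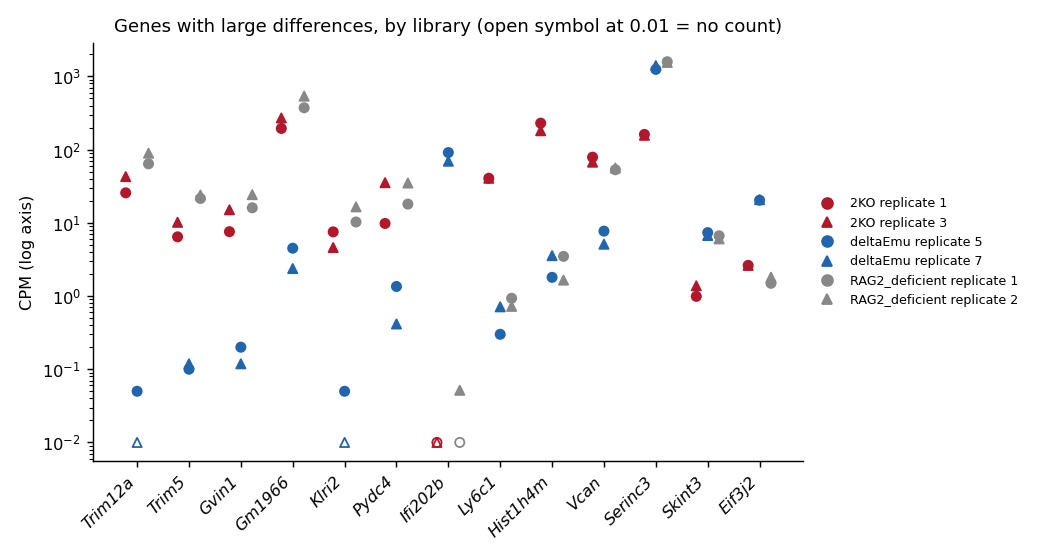
Levels in CPM (log axis) of 13 genes with large differences in each library, with circles and triangles for the replicates of a group and open symbols at 0.01 for libraries with no count. The first 6 genes are high in 2KO (red) and RAG2_deficient (grey) and low in deltaEmu (blue), Ifi202b is high in deltaEmu alone, and, among these 6 femoral libraries, Ly6c1 and Hist1h4m are high in 2KO alone and Serinc3 and Skint3 are low in 2KO alone.

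By position, called genes outside the immunoglobulin segments were counted in windows of 5 Mb. The window with the most was chromosome 1 from 170 to 175 Mb, with 14 of 93 tested genes called, 6 higher and 8 lower, the Ifi202b cluster among them. Chromosome 8 from 80 to 85 Mb held 10 of 68, including the erythroid factor gene Klf1. Chromosome 7 held 7 of 61 from 100 to 105 Mb, the beta globin and Trim12a genes among them, and 7 of 38 from 105 to 110 Mb, with Gvin1. Chromosome 11 from 55 to 60 Mb held 8 of 66, chromosome 2 from 150 to 155 Mb held 7 of 71, and chromosome 15 from 75 to 80 Mb held 7 of 125 (5.6%). In windows of 2 Mb, chromosome 17 from 34 to 36 Mb, in the MHC region with Hspa1a, Hspa1b, H2-DMb2 and H2-Eb2, had 8 of 107 genes called, all 8 lower in 2KO; the other 4 were H2-Q4, H2-Q5, H2-Q6 and H2-Q7, class I genes with similar sequences whose counts can be shared. Chromosome 12, which holds IgH, had 13 of 521 called outside the segments. Over the 489 called genes, the RAG2_deficient mean was nearer 2KO than deltaEmu for 131 of the 296 higher genes and for 157 of the 193 lower genes. These groups share the fit, so these counts describe levels and are not an independent comparison.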

How the data were processed

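Total RNA libraries of femoral cells were sequenced, and the authors deposited raw counts per gene. Per the submitters' processing notes, STAR 2.4.0a, featureCounts of Subread 1.4.6-p1 and the mouse builds mm10 and GRCm38 were used. How strand and multi-mapping reads were handled in counting, and which annotation release was used, is not given in the sources used here. Per the labels' protocols, RNA was extracted with miRNeasy and prepared with TruSeq Stranded Total RNA.

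From these counts, 46959 gene entries were kept, and 100 entries for control sequences were left out before scaling and testing. Genes passed filterByExpr with a minimum count of 10. The 6 femoral libraries (17710154 to 20825349 counts) were scaled by TMM and fitted with edgeR's quasi-likelihood test (edgeR 4.0.16, limma 3.58.1, R 4.3.3), with Benjamini-Hochberg adjustment and calls below 0.05. The alternatives were DESeq2 1.42.0, limma voom, other scalings, no filter, a fit of 4 libraries, stricter thresholds and leaving out each library. In counts simulated for this comparison, 12% of 2-fold changes (16227 genes) and 79.5% of 4-fold changes (16219 genes) were recovered.

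Genes were named by rule: the 12 largest called changes in each direction at 5 CPM or more in 1 group, without overlap or predicted names, up to 5 called members per list (the top 2 where none was called), called genes of the top windows, and a set of B lineage and reference genes. Genes outside the rule, chosen after their values were seen, are Ank1, Blvrb, Cd74, Fcrl1, Fos, Ftl1, Gata1, H2-Q4 to H2-Q7, Hba-a1, Hemgn, Hspa8, Ifit3, Ltf, Mpo, Nr4a2, Rgs1, Rhob, S100a8, S100a9, Slc25a37, Slc2a1, Slc6a9, Sptb, Stfa1, Tfrc, Tsc22d3 and Vcan. Some genes are not reported here. The members and gene lists were chosen with earlier results of these data known. The pools behind a replicate are of unstated size, and nothing says that they hold different animals, so the p-values reflect only how far these pools differ, which may be technical.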

Additional observations from a re-analysis of the deposited data

Results flagged for a closer look

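Counts on the 100 control sequences, which take no part in any comparison, were few but above 3 in 4 libraries. They were 4 in 2KO replicate 1, 7 in RAG2_deficient replicate 1, 5 in spleen culture replicate 2 and 17 in spleen culture replicate 3, of libraries with at least 17710154 counts each.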

How the results depend on the processing

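No paired analysis was possible because the 2KO libraries carry the numbers 1 and 3 and the deltaEmu libraries 5 and 7, so the groups share none. All genes called numbered 612 and became 1580 with the 4 compared libraries alone, 1537 with no filter, 398 with immunoglobulin, mitochondrial and ribosomal RNA genes removed, 949 with DESeq2, 223 at an adjusted p of 0.01, and 119 to 1587 when 1 library was left out. Outside the immunoglobulin segments, the same alternatives gave 1447 with 4 libraries, 1376 with no filter, 834 with DESeq2, 136 at 0.01 and 58 to 1446 without 1 library. Genes called higher numbered 775, 783, 463 and 96 in that order, and 37 to 780 without 1 library. Genes called lower numbered 672, 593, 371 and 40, and 21 to 666. Erythroid calls were 22 at 0.01 and 0 to 78 without 1 library. Mature B cell surface calls were 4 at 0.01 and 3 to 13. Immediate early calls were 13 with 4 libraries, 13 with no filter, 3 with limma voom, 10 with DESeq2, 1 at 0.01, and 1 to 13. The cause was not tested. Of 105 called genes followed singly, 24 kept the call without each of the 4 libraries and none reversed. With 1 library left out, values that were not called changed sign: Rag1 (0.12) ran from -0.38 to 0.50 with -0.11 among them, Rag2 (-0.01) from -0.34 to 0.32 with 0.26, Pax5 (-0.22) from -0.57 to 0.072, Ftl1 (-0.06) from -0.20 to 0.076, Ifit3 (-1.54) from -2.58 to 0.085 and Slc2a1 (0.03) from -0.049 to 0.10. The median of the complement and Fc receptor list (-0.04) ran from -0.18 to 0.032 and that of the endothelial list (0.04) from -0.12 to 0.21.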
